A study of Triticum aestivum with 18 samples.

Results

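The loci described here carry the genes of the mitochondrial respiratory chain and ATP synthase in germinating wheat seeds, taken from 94141 loci of the deposited table. A locus was a member when its description named cytochrome c oxidase, NADH dehydrogenase, NADH-ubiquinone, cytochrome b-c1, succinate dehydrogenase or ATP synthase subunit, in any case of letters, and did not contain the word chloroplastic. The rule itself uses no measured value, but it was proposed with earlier results of these data known. It gave 197 loci. By their descriptions 77 belonged to complex I, 10 to complex II, 4 to complex III, 26 to complex IV and 35 to complex V, while 16 named assembly factors and 29 named other proteins that share the same words.

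Complex I (NADH dehydrogenase) and complex II (succinate dehydrogenase) pass electrons from NADH and succinate to ubiquinone, complex III (the cytochrome b-c1 complex) passes them on to cytochrome c, and complex IV (cytochrome c oxidase) reduces oxygen to water. ATP synthase, complex V, uses the proton gradient that this transfer builds up, so the output of the chain falls when oxygen runs short, as it does under water. Most subunits are encoded in the nucleus, where hexaploid wheat usually keeps a copy on each of its A, B and D subgenomes, and a smaller number are encoded in the mitochondrial genome.

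The series compared germinating seeds of 3 wheat varieties, Zhoumai22 (ZM22), Bainong207 (BN207) and Bainong607 (BN607), with 3 libraries in each of 6 groups. Per the labels, W72 seeds stood under 10 cm of water for 72 h before germination, and C72 seeds, the control, were only imbibed for 24 h. The paper states neither that depth nor an imbibition time for the control. By these labels the time since first wetting also differed between W72 and C72, and it cannot be told apart from waterlogging. All seeds were sampled after 72 h of germination with the radicle and coleoptile removed, so every library is whole seed tissue without those organs. The libraries are called biological replicates, and the p-values cover only the spread between them. The qRT-PCR of the study was run on aliquots of this RNA, and there a sample is described as mixed from 3 seeds.

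The libraries held 68.75 M to 107.71 M summed counts, with a median of 97.69 M. In the tissue check, the median log2(FPKM + 1), where FPKM is fragments per kilobase of transcript, scaled to the mapped fragments of the library, lay between 3.17 and 10.32 over the 33 tested amylase genes of the aleurone. It lay between 0.03 and 4.28 over 31 endosperm storage protein genes, between 0.71 and 6.31 over 44 late embryogenesis abundant (LEA) and dehydrin genes, between 0.03 and 2.15 over 9 leaf light-harvesting genes and between 1.06 and 2.61 over 2 root genes. The library labelled W72_BN207 replicate 1 went against its label. Of 63 loci that reached 1 FPKM in all BN607 libraries and had no count in the other 5 BN207 libraries, all 63 reached 1 FPKM in it. Setting apart each of the other BN207 libraries in the same way gave 0 or 1 such locus of 66 to 90. Of 65 loci present in the other 5 BN207 libraries and without a count in BN607, 0 reached 1 FPKM in it. The main results for BN207 are therefore also given without that library.

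Of the 197 members, 97 were nuclear genes by description, 77 named subunits of the mitochondrial genome and 23 named subunits of the plastid genome. Loci were tested when 3 or more libraries reached 1 FPKM, which kept 81 members (41.1%) against 53.8% of the whole table. The 81 were 80 nuclear loci and 1 locus of the mitochondrial type, and 62 of the nuclear loci were structural subunits. Nuclear loci held 88.63% of the members' FPKM summed over all libraries, mitochondrial-type loci 11.36% and plastid-type loci 0.01%. Almost all of the mitochondrial-type share came from MSTRG.14854, a merged locus described below.

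The 100 loci that carry names of organelle genes lay on 20 nuclear chromosomes and on unplaced sequence, and 98 of them stayed below 1 FPKM in every library, 8 of these at 0 throughout. The highest untested ones were TraesCS4B02G147700 (chromosome 4B, 209311098 to 209311676), named as ATP synthase subunit 4, with a mean of 0.509 FPKM, and MSTRG.31793 (TraesCS7A02G097800, 7A, 60105159 to 60105951), named as cytochrome c oxidase subunit 3, with a mean of 0.354 FPKM. The libraries were made from poly(A) RNA, and transcripts of plant mitochondria mostly lack a stable poly(A) tail, so these values do not measure the output of the mitochondrial genome.

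A single organelle-type locus stood far above the others. MSTRG.14854 (3B, 822008340 to 822095011, in the IWGSC RefSeq v1.0 coordinates of the files) spans 86672 bp, merges 3 gene names, 1 of which is described as mitochondrial NADH dehydrogenase subunit 4, and had a mean of 521.8 FPKM. It had 125.4, 274.1 and 483.8 FPKM in C72_ZM22 and 8.89, 353.2 and 490.5 in W72_ZM22. It had 372.8, 1005.9 and 1059.0 FPKM in C72_BN207 and 838.9, 213.8 and 535.6 in W72_BN207. It had 840.6, 497.7 and 575.1 FPKM in C72_BN607 and 412.9, 830.9 and 474.0 in W72_BN607. The W72 and C72 ranges overlapped in every variety, and because several genes share the locus, its reads cannot be ascribed to NADH dehydrogenase. It was left out of the sums of structural subunits below.

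The structural subunits covered a wide range of levels. Among tested copy sets, that is, the loci sharing a description, ATP synthase subunit d, part of the stalk that joins the membrane and catalytic sectors, had the highest level, 513.6 FPKM summed over its A, B and D copies and averaged over the 18 libraries. It was followed by subunit O with 329.8, epsilon with 275.0, delta' with 204.5 and beta, the catalytic subunit, with 150.3 FPKM. This order held in all 18 libraries for each neighbouring pair except O over epsilon, which held in 17. Far below these lay the loci described only as an ATP synthase subunit, with 4.11 FPKM, and the subunit c family, with 1.31.

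In complex I the highest set was NADH dehydrogenase 1 beta subcomplex subunit 10-B with 300.3 FPKM, then subunit 9 with 256.2 and subunit 2 with 174.0, all accessory subunits of the membrane arm. The first 2 steps of that order held in 18 of 18 libraries. Lower down, alpha subcomplex subunit 5 (134.0 FPKM) was above beta subcomplex subunit 7 (130.3 FPKM) in only 9 of 18 libraries, so these neighbours were not separated.

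In complex II, subunit 3, a membrane anchor, had 227.1 FPKM, and the loci described only as succinate dehydrogenase had 62.5. A fusion-type description, iron-sulfur subunit and ribosomal protein S14 precursor, had 33.0 FPKM, subunit 5 had 9.42 and the flavoprotein subunit, which binds succinate, 3.29. Each step held in 18 of 18 libraries except subunit 5 over the flavoprotein, which held in 15.

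In complex III, subunit 9 (158.8 FPKM) was above subunit 7 (120.0 FPKM) in 16 of 18 libraries. In complex IV, subunit 5C had 155.8 FPKM, subunit 6A 96.6, subunit 6B 86.1, a locus described only as a subunit 60.8 and subunit 5C-4 3.17. The pair 6A and 6B kept its order in 12 of 18 libraries, the other neighbours in all 18. The members of one complex were thus not at one common level, and complexes II, IV and V each had sets below 10 FPKM.

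**Figure D1:**
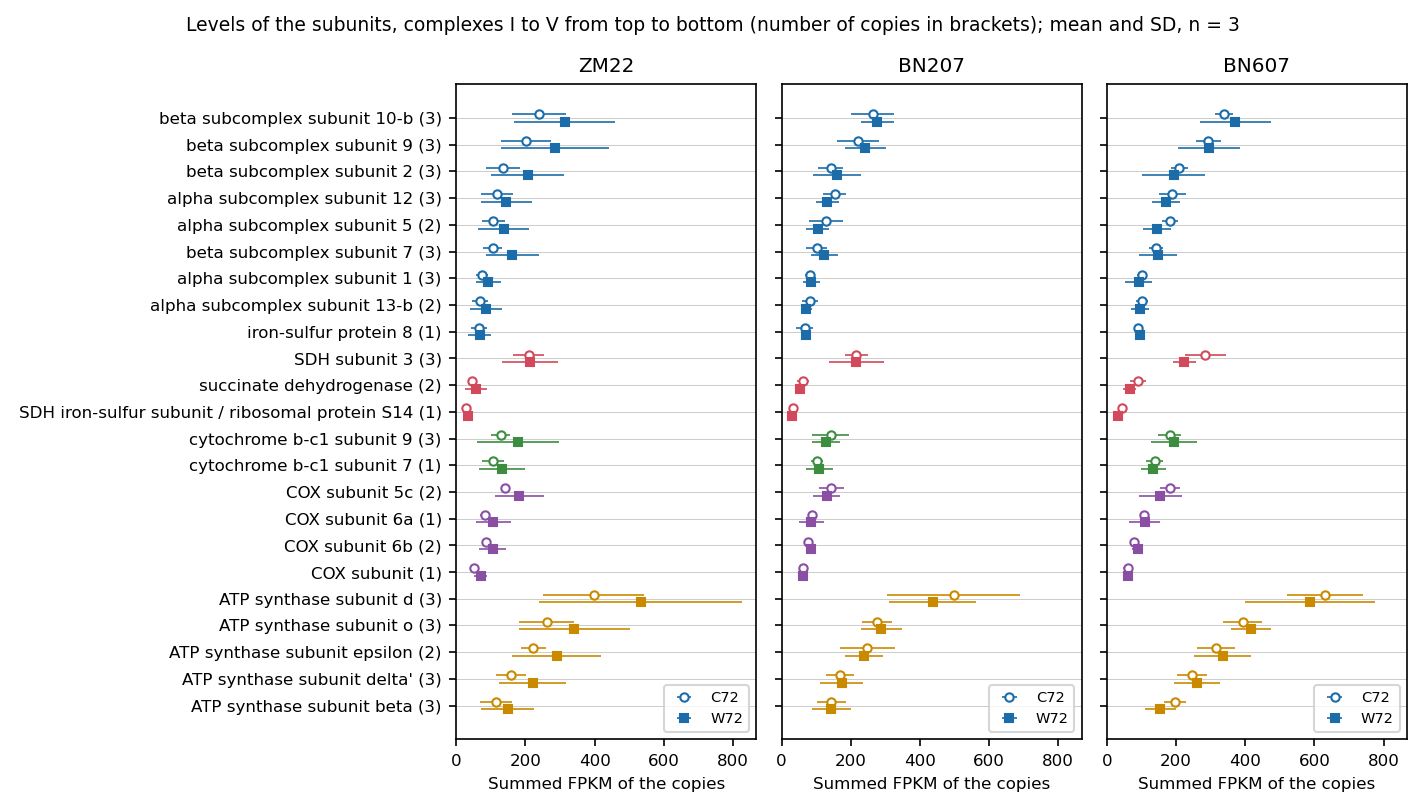
Level of the copy sets with a mean of at least 20 FPKM, summed over the copies of a set, in a panel for each variety, with open circles for the mean of C72, filled squares for the mean of W72 and bars for the SD (n = 3 libraries). The C72 and W72 marks of a set lie close together against their bars, and ATP synthase subunit d is the highest set, with a mean of 513.6 FPKM over the 18 libraries.

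Summed over the 62 tested structural loci, the level was 2315.4, 3298.0 and 3892.4 FPKM in C72_ZM22 and 1846.4, 5468.2 and 5063.9 in W72_ZM22. It was 2483.4, 3897.2 and 4167.5 in C72_BN207 and 4542.3, 2916.2 and 2928.4 in W72_BN207, where the first value is the library labelled W72_BN207 replicate 1. It was 5395.3, 4146.5 and 4315.9 in C72_BN607 and 3141.2, 5444.4 and 4743.5 in W72_BN607. The lowest sum (W72_ZM22 replicate 1) and the highest (W72_ZM22 replicate 2) came from the same group, and the highest was 2.96-fold the lowest. W72 and C72 ranges overlapped in each variety for the total and for each of the 5 complexes.

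By group, complex I had 1113.5 ± 363.6 FPKM (SD, n = 3) in C72_ZM22 and 1495.1 ± 740.2 in W72_ZM22, 1240.3 ± 329.1 in C72_BN207 and 1266.2 ± 330.0 in W72_BN207, and 1643.6 ± 199.7 in C72_BN607 and 1606.2 ± 479.9 in W72_BN607. Complex V had 1160.7 ± 331.0 and 1538.6 ± 758.6 FPKM in C72 and W72 of ZM22, 1339.5 ± 394.3 and 1285.1 ± 360.7 in BN207, and 1787.8 ± 280.4 and 1759.1 ± 416.6 in BN607. In both, the difference between W72 and C72 was smaller than the larger SD in every variety. The W72_BN207 libraries other than replicate 1 had 1133.7 and 1023.1 FPKM for complex I and 1085.7 and 1068.1 for complex V. Complex II had 437.4 ± 95.2 FPKM in C72_BN607, its highest group mean, and 335.8 ± 62.2 in W72_BN607, while complex IV was most even in C72_ZM22, with 367.9 ± 10.8.

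The complexes mostly moved together between libraries, while their proportions varied less. Complex I ranged 3.18-fold over the 18 libraries, complex II 3.22-fold, complex III 4.47-fold, complex IV 2.24-fold and complex V 3.16-fold, and each was lowest in W72_ZM22 replicate 1. As a share of the 5 complexes' sum, complex I held 35.7% ± 1.57 (SD, n = 18 libraries), complex II 8.76% ± 1.04, complex III 7.05% ± 0.622, complex IV 10.7% ± 1.97 and complex V 37.8% ± 1.65. Complex IV did not follow the others in C72_ZM22. It had 371.8, 376.2 and 355.8 FPKM there, while complex I had 746.6, 1120.0 and 1473.8. The share of complex IV was highest, 16.1%, in C72_ZM22 replicate 1 and was 9.14% in replicate 3.

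**Figure D2:**
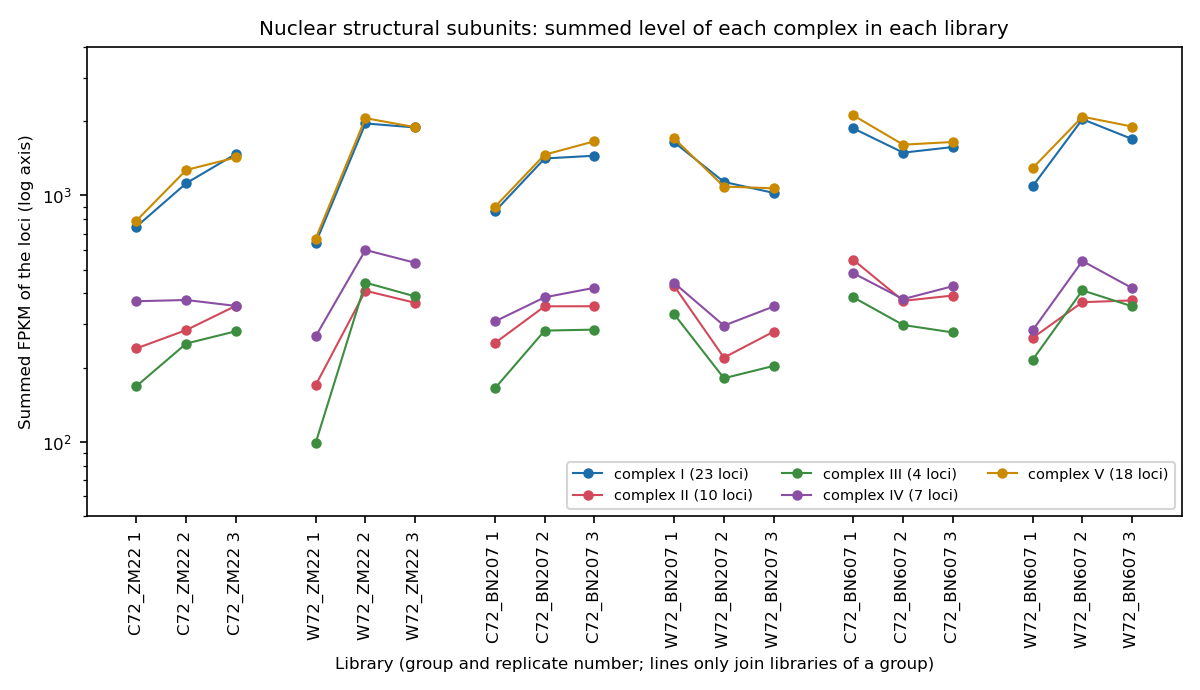
Summed FPKM of the tested nuclear structural loci of complexes I to V in each of the 18 libraries, on a log axis, with 1 point for each library and lines that only join the libraries of a group. Within every variety the W72 and C72 points overlap in all 5 complexes, and W72_ZM22 replicate 1 is the lowest library in each of them.

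In 13 of 18 pairs of libraries from the same group, 50 or more of the 62 structural loci were higher in the same library of the pair by FPKM, and in 11 of 18 by TMM-scaled CPM, that is, counts scaled to the adjusted size of the library, as in the tests. Between W72_ZM22 replicates 1 and 2, 61 of the 62 structural loci were higher in replicate 2, whereas 32.4% of all tested genes were higher in replicate 1. In C72_BN207, 59 of 62 were higher in replicate 3 than in replicate 1, and in W72_BN207, 59 of 62 were higher in the library labelled replicate 1 than in replicate 2. The most even split was 34 to 28 by FPKM, between W72_BN207 replicates 2 and 3, and 33 to 29 by TMM-scaled CPM, between W72_BN607 replicates 1 and 3. In 5 of 18 pairs the library with the majority differed between the scales, as for W72_ZM22 replicates 2 and 3, where replicate 2 was higher in 50 loci by FPKM and in 9 by TMM-scaled CPM. Of the 62 loci, 44 had their lowest FPKM in W72_ZM22 replicate 1, and the fold between a locus's highest and lowest library had a median of 3.58 (1.89 to 40.9).

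Genes outside the chain were read in the same libraries. The library with the lowest median of structural subunits in a group was also the lowest for cytochrome c (3 tested genes) and for the outer membrane porins (11), which let small molecules into mitochondria, in 6 of 6 groups. It was the lowest for the mitochondrial import machinery (35) and for cell division genes (266) in 4 of 6 groups, and for all tested genes in 4 of 6. For the citric acid cycle and pyruvate dehydrogenase (33) it was the lowest in 3 of 6 groups. For the ADP/ATP and phosphate carriers (11) it was the lowest in 2 of 6 groups and the highest in 3. For the alternative oxidase (7), which accepts electrons from ubiquinone ahead of complex III, it was the lowest in 0 of 6 groups and the highest in 3. For amylases and for LEA genes it was the highest library in 4 of 6 groups. Cell division genes ranged from a median log2(FPKM + 1) of 0.73 to 4.71 between libraries, against 4.22 to 6.11 for the members and 1.63 to 2.23 for all tested genes. The part of tissue make-up, RNA quality or depth in these shared movements was not tested. In whole seed tissue, fewer respiring cells and less of these transcripts per cell cannot be told apart.

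No member passed edgeR's test between W72 and C72 seeds. With its quasi-likelihood test and Benjamini-Hochberg adjustment over all 50656 tested loci, 0 of 81 members passed an adjusted p of 0.05 in ZM22, where 0.00592% of all tested loci did. In BN207 0 members passed (0.0% of all loci), in BN607 0 (0.0%) and for the average of the 3 varieties 0 (0.00197%). At an unadjusted p of 0.05, 0 members passed in ZM22 (1.09% of all loci), 2 in BN207 (1.89%), 0 in BN607 (2.12%) and 1 in the average (2.72%). With a log2 fold change beyond 1 required as well, 0 passed in ZM22 (0.813%), 1 in BN207 (1.61%), 0 in BN607 (1.32%) and 0 in the average (1.52%). limma on log2(FPKM + 1) called 0 members in each of these comparisons, and 0 of all 50656 loci. DESeq2 called 1 in ZM22 (0.284% of all loci), 1 in BN207 (0.541%), 0 in BN607 (0.0671%) and 0 in the average (0.43%), each time the succinate dehydrogenase locus TraesCS2A02G298400 described below, whose call in ZM22 rested on 4 counts in 1 library. With so wide a spread (common biological coefficient of variation 0.676), a count of 0 does not show that the levels were equal.

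The differences between varieties in the response to waterlogging gave 0 called members as well. The comparison of BN207 with ZM22 had 0.00395% of all loci called, BN607 with ZM22 0.00395% and BN607 with BN207 0.0%. At an unadjusted p of 0.05, 2 members passed in the first (1.49% of all loci), 1 in the second (1.37%) and 2 in the last (1.36%). The same counts held with a log2 change beyond 1 (1.4%, 1.15% and 1.23% of all loci), and the loci were TraesCS2A02G298400, the copper chaperone TraesCS6A02G355800 and the ATP synthase subunit c locus TraesCS7A02G098200. limma on log2(FPKM + 1) called 0 members and 0 of all loci in each. DESeq2 called TraesCS2A02G298400 in each (0.458%, 0.215% and 0.322% of all loci). When the library labelled W72_BN207 replicate 1 was left out, 1 member passed the unadjusted p in the first (1.6% of all loci) and 0 in the last (1.18%).

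The median log2 fold change of the 81 members was 0.19 in ZM22, with 60 loci above 0, against -0.02 for all tested genes. It was 0.05 in BN207, with 47 above 0 and -0.05 for all genes, and 0.09 in BN607, with 52 above 0 and 0.10 for all genes. These medians rested on single libraries. Without W72_ZM22 replicate 1 the ZM22 median was 0.44, and without W72_ZM22 replicate 3 it was -0.06. Without the library labelled W72_BN207 replicate 1 the BN207 median was -0.14, with 24 of 81 above 0 against -0.08 for all genes, 0 members were called (0.0% of all loci) and 1 passed the unadjusted p (3.28%). Without that library 0 members were called in the other waterlogging comparisons too. On the log2(FPKM + 1) scale, where all genes had a median of -0.12 in BN607, the members' median was -0.03 in BN207 and -0.11 in BN607.

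By complex, the average log2 fold change over the varieties had a median of 0.19 for complex I (20 of 24 loci above 0), -0.07 for complex II (4 of 10), 0.16 for complex III (4 of 4), 0.15 for complex IV (5 of 7), 0.10 for complex V (14 of 18) and 0.05 for the assembly factors (10 of 13), against 0.01 for all tested genes. On the log2(FPKM + 1) scale, where limma gave these medians as 0.11, -0.14, 0.04, 0.04, 0.01 and 0.02, 16 of 24, 3 of 10, 3 of 4, 4 of 7, 10 of 18 and 7 of 13 lay above 0. Without the library labelled W72_BN207 replicate 1 the edgeR medians were 0.14, -0.15, 0.09, 0.05, 0.04 and 0.04. The 24 loci of complex I include the merged locus MSTRG.14854, which was left out of the sums, and so do the 81 tested members. None of these loci passed the adjusted threshold.

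**Figure D3:**
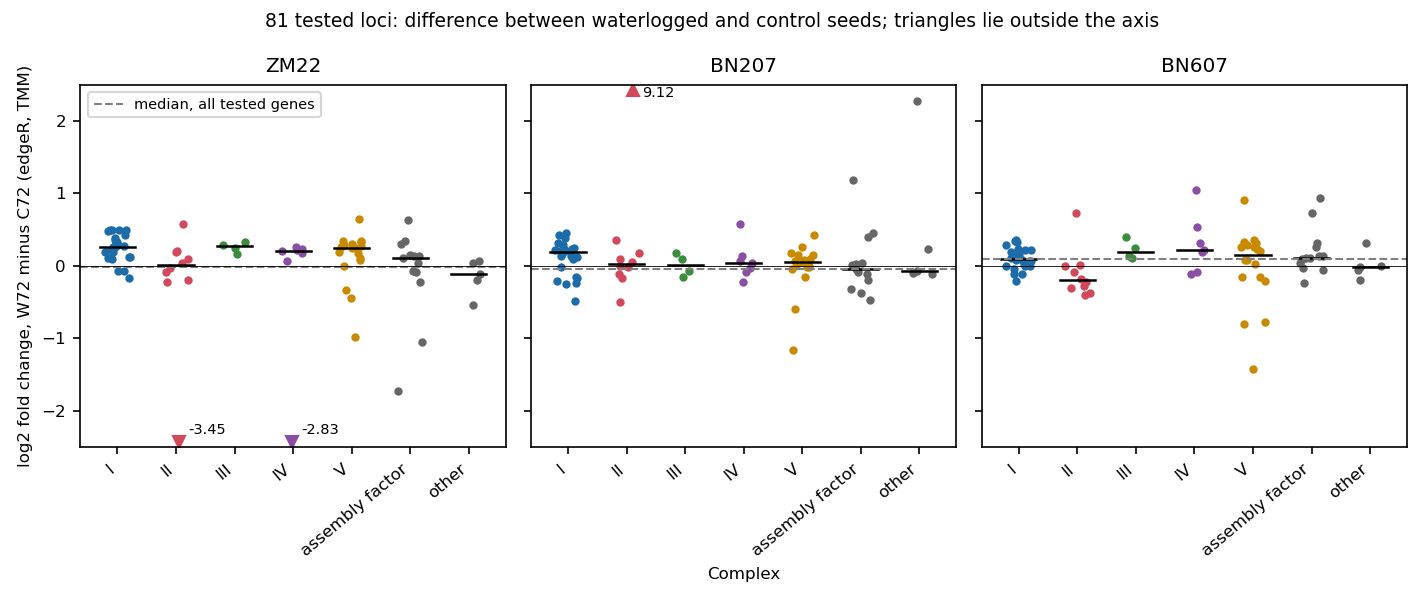
Log2 fold change, W72 over C72, of each of the 81 tested members by complex in a panel for each variety, with a short line at the median of each complex, a dashed line at the median of all tested genes and triangles, with their values, for loci outside the axis. Most loci lie near 0 in all varieties, and the triangle at 9.12 in BN207 is TraesCS2A02G298400, detected there only in the library labelled W72_BN207 replicate 1.

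The member with the lowest p in the average over varieties was MSTRG.9553 (TraesCS2D02G171000, 2D, 114770426 to 114775261), cytochrome c oxidase subunit 6B, which faces the intermembrane space. It had 21.4, 21.0 and 21.7 FPKM in C72_ZM22 and 15.1, 37.1 and 33.2 in W72_ZM22. It had 13.7, 19.8 and 18.8 in C72_BN207 and 24.7, 22.9 and 24.6 in W72_BN207, and 22.5, 22.1 and 18.3 in C72_BN607 and 20.6, 28.0 and 30.6 in W72_BN607. All W72 values lay above all C72 values in BN207, as they or their reverse did for 3.62% of all tested loci there, and the groups overlapped in ZM22 and BN607. Its average log2 fold change was 0.44 (SE 0.14, unadjusted p = 0.0078, adjusted p = 1.0 by edgeR), with 0.23 in ZM22, 0.57 in BN207 and 0.53 in BN607. Here and below the SE was derived from the F statistic of edgeR's test and is not a fitted standard error. The BN207 value, with each library left out in turn, ran from 0.45 to 0.63.

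MSTRG.23152 (TraesCS5A02G496200, 5A, 663721698 to 663726921), complex I beta subcomplex subunit 7, came next. It had 25.2, 35.7 and 39.3 FPKM in C72_ZM22 against 28.5, 68.0 and 61.9 in W72_ZM22. It had 21.5, 32.4 and 42.5 in C72_BN207 against 45, 40.8 and 24.8 in W72_BN207, and 46.6, 39.1 and 38.3 in C72_BN607 against 23.1, 57.4 and 51.1 in W72_BN607. The groups overlapped in all 3 varieties. The average log2 fold change was 0.34 (SE 0.17, unadjusted p = 0.059, adjusted p = 1.0 by edgeR). For MSTRG.28173 (TraesCS6A02G275200, 6A, 501802077 to 501805426), ATP synthase subunit O, it was 0.42 (SE 0.23, unadjusted p = 0.0858, adjusted p = 1.0).

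The highest loci of each complex had average differences near 0. The average log2 fold change was 0.26 (SE 0.19) for MSTRG.4097, complex I beta subcomplex subunit 10-B on 1D, and -0.12 (SE 0.18) and -0.10 (SE 0.16) for MSTRG.9791 on 2D and MSTRG.7755 on 2B, both succinate dehydrogenase subunit 3. It was 0.15 (SE 0.19) for MSTRG.23011 and 0.11 (SE 0.25) for MSTRG.964, complex III subunits 7 and 9. It was 0.02 (SE 0.18) for MSTRG.23622, cytochrome c oxidase subunit 5C on 5B, and 0.15 (SE 0.19) for MSTRG.22841, subunit 6A. The remaining copies, MSTRG.5726 (subunit 3 on 2A) and MSTRG.21672 (subunit 5C on 5A), had 0.05 (SE 0.19) and 0.00 (SE 0.17). None of these passed the test.

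MSTRG.8069 (TraesCS2B02G310000, 2B, 442914799 to 442917187), the ATP synthase subunit d copy with the highest level, shows the usual pattern of values. It had 88.9, 141.5 and 197.8 FPKM in C72_ZM22 and 73.5, 261.8 and 234.6 in W72_ZM22. It had 105, 201.8 and 240.7 in C72_BN207 and 225.4, 137.8 and 135.2 in W72_BN207, and 293.4, 222.5 and 210.2 in C72_BN607 and 143.3, 281.6 and 232.6 in W72_BN607. The groups overlapped in every variety and the average log2 fold change was 0.09 (SE 0.22). The other copies had 0.12 (SE 0.23, MSTRG.10098, 2D) and 0.06 (SE 0.23, MSTRG.6029, 2A).

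Among loci of low level, TraesCS2D02G229600 (2D, 199356163 to 199357854), described as an ATP synthase subunit, had 2.38, 1.73 and 2.01 FPKM in C72_BN607 and 0.585, 0.400 and 0.987 in W72_BN607. These groups did not overlap, which held for 9.44% of all tested loci in BN607, and the log2 fold change of -1.43 (SE 0.76, unadjusted p = 0.0806, adjusted p = 1.0 by edgeR) did not pass the test. TraesCS7A02G098200 (7A, 60167525 to 60167866), of the ATP synthase subunit c family, had 1.58, 0.770 and 1.59 FPKM in C72_BN207 and 0.392, 0.454 and 0.769 in W72_BN207, also without overlap, and a log2 fold change of -1.16 (SE 0.65). In BN607 the same locus had 0.91 (SE 0.65).

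TraesCS6A02G355800 (6A, 586876643 to 586878066), a copper chaperone that delivers copper for cytochrome c oxidase, had 1.48, 0.803 and 0.290 FPKM in C72_ZM22 and 0.218, 0.155 and 0.480 in W72_ZM22. These overlapped, and its log2 fold change was -1.73 (SE 0.83, unadjusted p = 0.0573). MSTRG.15094 (3D, 46198806 to 46199051), cytochrome c oxidase subunit 5C-4, had 18.2, 2.36 and 1.18 FPKM in C72_ZM22 and 0.475, 1.18 and 1.96 in W72_ZM22, so that its log2 fold change of -2.83 (SE 1.67) rested mainly on 1 control library. Over all members, 0 loci were free of overlap in ZM22, where 3.4% of all tested loci were. There were 3 in BN207 (3.62% of all tested loci), namely MSTRG.9553, TraesCS7A02G098200 and the CtaG locus MSTRG.17752, and 2 in BN607 (9.44%), TraesCS2D02G229600 and the flavoprotein locus TraesCS5A02G077100. By TMM-scaled CPM there were 1 in ZM22 (3.94% of all tested loci), TraesCS7A02G098200, 5 in BN207 (3.53%), of which MSTRG.9553 was also free of overlap by FPKM, and 3 in BN607 (10.6%), the 2 named and MSTRG.9553.

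The rest of the pathway gave no called gene between W72 and C72 seeds either, with 0 genes past edgeR's adjusted threshold in any variety. At an unadjusted p of 0.05 by edgeR, 1 of 7 alternative oxidase and 2 of 35 protein import genes passed, all in ZM22 (1.09% of all loci). The average log2 fold change had a median of 0.05 for cytochrome c (2 of 3 above 0), -0.50 for the alternative oxidase (1 of 7), 0.02 for the citric acid cycle and pyruvate dehydrogenase (19 of 33), 0.13 for the ADP/ATP and phosphate carriers (7 of 11), 0.07 for porins (10 of 11) and 0.16 for protein import (30 of 35). The alternative oxidase had -1.39 for ZM22, 0.47 for BN207 and -0.51 for BN607 as its medians, and for the carriers -0.64, 0.29 and -0.08. For 16 fermentation genes, which regenerate NAD+ when the chain is idle, they were -0.02, -0.76 and -0.34, with 16 of 16 below 0 in BN207. Without W72_BN207 replicate 2 the fermentation median in BN207 was -0.56 with 11 of 16 below 0, and without replicate 3 it was -1.09 with 13 of 16. Leaving out the library labelled W72_BN207 replicate 1 gave -1.34. The alternative oxidase then had 0.70 and the carriers 0.72, and the average over varieties was -0.04 for cytochrome c, -0.01 for the citric acid cycle and pyruvate dehydrogenase and 0.04 for porins. Of 3 loci described as alternative NAD(P)H dehydrogenases 0 were tested, and the external NADH dehydrogenase, which belongs to the members, is given below.

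Between W72 and C72 seeds the lists of other tissues and processes also held 0 genes called by edgeR. At an unadjusted p of 0.05, 14, 10 and 1 of 31 storage protein genes passed in ZM22, BN207 and BN607, and 1, 4 and 0 of 44 LEA genes. In BN207, 1 of 266 cell division genes and 1 of 9 light-harvesting genes passed too. Of all tested loci 1.09%, 1.89% and 2.12% passed in ZM22, BN207 and BN607. In ZM22, BN207 and BN607, the median was 0.63, -1.23 and 0.11 over cell division genes and -3.77, -2.18 and -0.85 over storage protein genes. LEA and dehydrin genes had -0.20, 3.10 and 0.21, amylases 0.21, 0.02 and 1.11, light-harvesting genes -0.36, -1.66 and 0.50, and the 2 root genes 0.04, -0.05 and 0.39. The BN207 value of the LEA genes rested on W72_BN207 replicate 2, without which it was -1.29. The BN207 medians without the library labelled W72_BN207 replicate 1 were -1.69 for cell division, -3.28 for storage proteins, 3.66 for LEA genes, 0.37 for amylases and -3.69 for light-harvesting genes. Their part in the members' values was not tested.

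The members that edgeR called between varieties with all libraries were 2 loci of complex II. Averaged over W72 and C72, 2 of the 81 members were called between BN607 and ZM22, both higher in BN607, against 10.6% of all tested loci called and 3.84% called higher. A share of 2 in 81 lies below that background. Between BN207 and ZM22 0 members were called (4.63% of all loci) and between BN607 and BN207 0 (1.52%). At an unadjusted p of 0.05, 5 members passed for BN207 against ZM22 (16.8% of all loci), 8 for BN607 against ZM22 (27.7%) and 3 for BN607 against BN207 (9.53%). With a log2 difference beyond 1 as well, 1, 3 and 2 passed (11%, 18.3% and 6.62% of all loci), and DESeq2 called 2, 6 and 2 (10.4%, 20% and 4.67% of all loci). The DESeq2 calls were MSTRG.5863 and TraesCS7B02G348600 in the first, MSTRG.5863, the 3 CtaG loci and both called complex II loci in the second, and those same complex II loci in the last. Without the library labelled W72_BN207 replicate 1, edgeR's counts by the adjusted p were 0 (4.7% of all loci), 2 (10.5%) and 1 (4.11%), and 4 (16.9%) and 7 (13.9%) passed the unadjusted p in the first and the last.

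TraesCS2A02G298400 (2A, 513841262 to 513844936) encodes succinate dehydrogenase subunit 5, a plant-specific subunit of complex II. It had 2.89, 3.02 and 2.58 FPKM in C72_BN607 and 2.03, 2.2 and 3.14 in W72_BN607. In ZM22 it had 0.0496 FPKM in C72 replicate 3 and 0 in the other 5 libraries, and in BN207 it had 2.96 FPKM in the library labelled W72_BN207 replicate 1 and 0 in the other 5. The BN607 libraries held up to 222 counts of it and the library labelled W72_BN207 replicate 1 held 210, while 10 of the other 11 libraries held none and the highest held 4. Its mean in BN607 was 2.64 FPKM ± 0.453 (SD, n = 6), at least 60.2-fold higher than the level that 3 counts in a library would give. The fitted log2 difference from ZM22 was 8.68 (SE 1.91, adjusted p = 0.0182 by edgeR), a value that depends on the prior count. The locus was tested only through BN607 and the library labelled W72_BN207 replicate 1, where it reached 1 FPKM. With no filter on low values the log2 difference was 8.67 (adjusted p = 0.0178 by edgeR).

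Between BN607 and BN207 that locus was not called with all libraries (adjusted p = 0.172 by edgeR). Without the library labelled W72_BN207 replicate 1 it was, with a log2 difference of 10.41 (SE 1.25, adjusted p = 0.00169). The same library decides its waterlogging value in BN207, a log2 fold change of 9.12 (SE 2.86, unadjusted p = 0.00937, adjusted p = 1.0), and without it all BN207 libraries were at 0 counts.

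A subunit 5 locus on 2B was detected in every library. This locus, MSTRG.8083, had 4.15, 5.32 and 7.98 FPKM in C72_ZM22 and 3.76, 9.08 and 8.85 in W72_ZM22. It had 5.11, 9.24 and 8.55 in C72_BN207 and 11.7, 8.38 and 7.30 in W72_BN207, and 14.4, 9.70 and 9.29 in C72_BN607 and 6.66, 9.53 and 11.7 in W72_BN607. Its ranges overlapped between the 3 varieties, while those of the 2A locus did not overlap between ZM22 and BN607.

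TraesCS5A02G077100 (5A, 93197696 to 93199128) is described as the flavoprotein subunit of succinate dehydrogenase. It had 0.216, 0.0969 and 0.720 FPKM in C72_ZM22 and 0.515, 0.561 and 0.458 in W72_ZM22. It had 0.275, 0.903 and 0.723 in C72_BN207 and 0.781, 0.589 and 0.434 in W72_BN207, and 1.22, 1.45 and 1.27 in C72_BN607 and 1.65, 1.64 and 2.31 in W72_BN607. All BN607 values lay above all values of ZM22 and BN207, and within BN607 all W72 values lay above all C72 values. The library labelled W72_BN207 replicate 1 is counted with BN207 here. Its 0.781 FPKM lay below every BN607 library, so at this locus it did not go with BN607. The log2 difference between BN607 and ZM22 was 1.73 (SE 0.43, adjusted p = 0.0203 by edgeR), at a level close to the limit for testing. Only BN607 libraries reached the limit of 1 FPKM, so the locus was tested through the group where it is high. With no filter on low values the log2 difference was 1.71 (adjusted p = 0.0382 by edgeR).

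Another flavoprotein locus was not highest in BN607. MSTRG.5863 on 2A had 4.04, 5.76 and 2.43 FPKM in C72_ZM22 and 6.79, 3.16 and 1.46 in W72_ZM22, against 3.20, 0.753 and 1.11 in C72_BN207 and 1.75, 1.02 and 0.967 in W72_BN207. In BN607 it had 2.32, 2.0 and 2.36 in C72 and 1.53, 0.523 and 2.19 in W72. The varieties overlapped. With all libraries edgeR did not call it, while DESeq2 did between BN207 and ZM22 (log2 difference -1.46, adjusted p = 0.0461) and between BN607 and ZM22 (-1.40, adjusted p = 0.0365). Without C72_BN207 replicate 1 edgeR called it between BN207 and ZM22 (log2 difference -2.0, adjusted p = 0.0321).

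**Figure D4:**
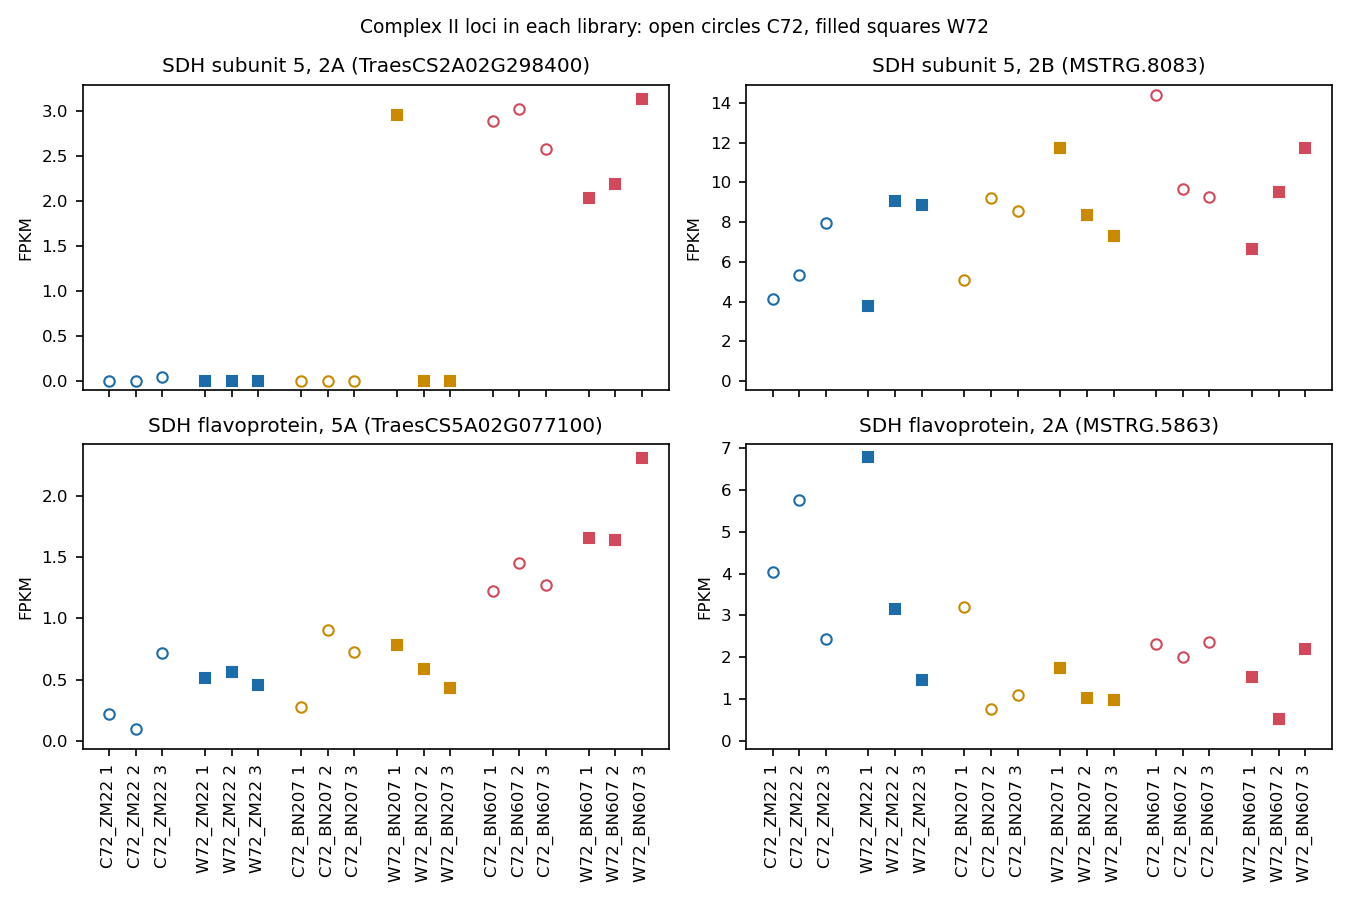
FPKM of 4 complex II loci in each library, with open circles for C72, filled squares for W72 and a colour for each variety. TraesCS2A02G298400 lies between 2.03 and 3.14 FPKM in BN607 and at 2.96 in the library labelled W72_BN207 replicate 1, and at or near 0 elsewhere. TraesCS5A02G077100 is higher in all 6 BN607 libraries than in the others, among them the library labelled W72_BN207 replicate 1.

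Both calls between BN607 and ZM22 were sensitive to single libraries. Without C72_ZM22 replicate 1 neither passed (adjusted p = 0.0536 and 0.055), without C72_ZM22 replicate 2 the 2A locus was lost (adjusted p = 0.0546), without C72_BN607 replicate 2 the 5A locus was lost (adjusted p = 0.0512), and without C72_ZM22 replicate 3 the count was 5, with the 3 CtaG loci added. The median log2 difference of the members was -0.02 between BN207 and ZM22 (39 of 81 above 0), 0.12 between BN607 and ZM22 (60 of 81) and 0.12 between BN607 and BN207 (61 of 81), against 0.07, 0.06 and 0.01 for all tested genes. With each library left out in turn, this median ran from -0.18 to 0.12, -0.01 to 0.25 and 0.03 to 0.21 in that order. Between BN607 and ZM22 it was -0.01 without W72_ZM22 replicate 1 and 0.02 without C72_BN607 replicate 1. Without the library labelled W72_BN207 replicate 1 it was -0.09 between BN207 and ZM22 (27 of 81, all genes 0.01) and 0.21 between BN607 and BN207 (66 of 81, all genes 0.03). In the comparison of BN607 with ZM22, 18 of 18 complex V loci and 1 of 7 complex IV loci lay above 0, with medians of 0.23 and -0.25. On the log2(FPKM + 1) scale these were 18 of 18 and 2 of 7, with medians of 0.45 and -0.03.

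The assembly protein CtaG, which inserts copper into cytochrome c oxidase, was measured by 3 loci. MSTRG.17752 (4A, 576563120 to 576569240) had 3.85, 3.16 and 4.52 FPKM in C72_BN207 and 2.48, 2.81 and 3.12 in W72_BN207, which did not overlap, with a log2 fold change of -0.37 (SE 0.29, adjusted p = 1.0 by edgeR). The copies lay at -0.52 (SE 0.20, MSTRG.17752, 4A), -0.53 (SE 0.21, MSTRG.18591, 4B) and -0.53 (SE 0.21, TraesCS4D02G051000, 4D) on the log2 scale for BN607 minus ZM22, with adjusted p of 0.112, 0.114 and 0.122 by edgeR. DESeq2 called all 3 (adjusted p = 0.036, 0.0331 and 0.0466), and so did edgeR without C72_ZM22 replicate 3 (adjusted p = 0.0345, 0.0278 and 0.0382). Their summed level was 11.4 ± 2.88 FPKM (SD, n = 3) in C72_ZM22 and 12.6 ± 0.97 in W72_ZM22, against 10.0 ± 1.26 and 7.99 ± 0.64 in BN207 and 9.64 ± 0.68 and 9.82 ± 1.78 in BN607. The 5 copper chaperone loci together had 49.8 FPKM, complex I assembly factor 3 had 32.3 and assembly factor 7 had 3.47.

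Members outside the chain proper were few. The 5 tested loci of the remaining class were a subunit E of the vacuolar proton pump with a mean of 95.0 FPKM, the 3 copies of a putative NADH-ubiquinone oxidoreductase with a fission yeast locus name, together at 5.63 FPKM, and an external NADH dehydrogenase, which oxidizes cytosolic NADH, at 0.65 FPKM. The external NADH dehydrogenase MSTRG.12232 (3A, 557016226 to 557021112) was uneven within groups, with 0.480, 1.82 and 0.0855 FPKM in C72_ZM22, 1.48, 0.165 and 0.0818 in W72_ZM22, and 1.30, 1.64 and 0.133 in C72_BN607. In W72_BN207 it had 1.42, 0.0401 and 0.111 FPKM, the first in the library labelled replicate 1, so its log2 fold change of 2.27 (SE 1.53) in BN207 rested on that library. The pump subunit kept between 68.6 and 127.5 FPKM in all libraries. None of the 5 loci was called by edgeR with all libraries, and DESeq2 called TraesCS7B02G348600, a copy of the putative oxidoreductase, between BN207 and ZM22 (log2 difference 0.58, adjusted p = 0.0422).

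The A, B and D copies had similar median shares. Over 16 sets with 1 locus on each subgenome, the A copy held a median of 32.0% of the set's level (14.2 to 43.5%), the B copy 34.3% (18.0 to 55.2%) and the D copy 32.3% (23.7 to 44.8%). The highest copy was on A in 6 sets, on B in 5 and on D in 5. Near-identical copies can exchange reads, and how reads matching several copies were counted is not stated, so single shares are uncertain.

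The share of the A copy had separate ranges in BN607 and ZM22 for ATP synthase subunit d and complex I beta subcomplex subunit 2. The 2A copy of ATP synthase subunit d held 31.9 to 34.6% of its set in ZM22, 31.9 to 32.9% in the BN207 libraries other than W72_BN207 replicate 1, and 27.9 to 28.6% in BN607. The library labelled W72_BN207 replicate 1 had 28.6%, within the BN607 range. The 7A copy of complex I beta subcomplex subunit 2, chosen after its values were seen, held 11.3 to 12.9% in ZM22, 10.4 to 13.3% in the other BN207 libraries, 14.1 to 18.8% in BN607 and 17.9% in the library labelled W72_BN207 replicate 1, while the 7B copy held 55.2% on average. The D copies of both sets also had separate ranges in ZM22 and BN607. The 2D copy of ATP synthase subunit d held 29.9 to 32.0% in ZM22 and 33.3 to 34.4% in BN607. In the library labelled W72_BN207 replicate 1 it held 32.6%, outside both ranges. The 7D copy of beta subcomplex subunit 2 held 30.4 to 36.9% in ZM22 and 26.7 to 30.1% in BN607. In the library labelled W72_BN207 replicate 1 it held 28.9%, within the BN607 range. These shares are descriptions without a test.

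**Figure D5:**
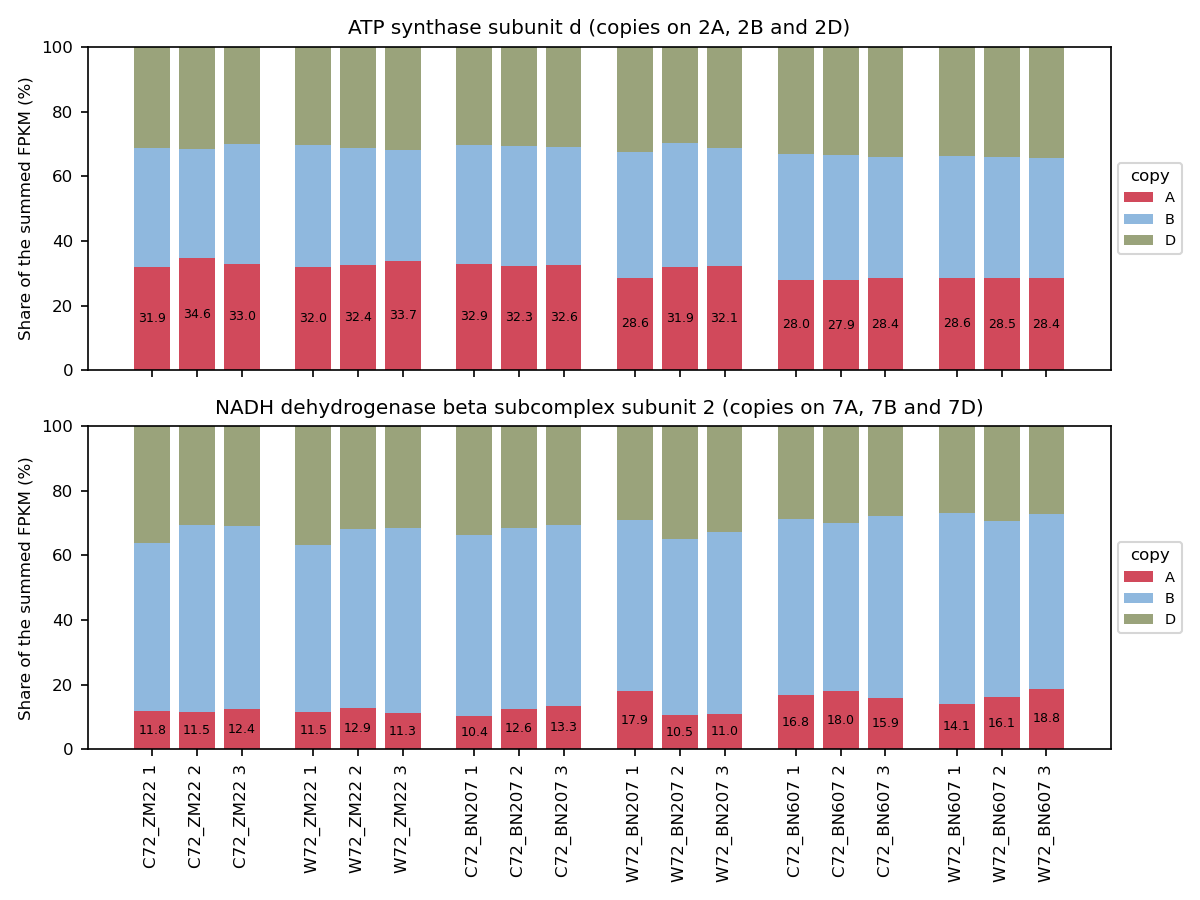
Share of the A, B and D copies in the summed FPKM of ATP synthase subunit d (upper bars) and complex I beta subcomplex subunit 2 (lower bars), in percent, for each library, with the A share written in the bar. The 2A share of ATP synthase subunit d lies at 27.9 to 28.6% in BN607 and at 31.9% or more in ZM22, and the library labelled W72_BN207 replicate 1 (28.6%) lies with BN607.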

How the data were processed

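RNA of 18 libraries (3 in each of 6 groups) was sequenced as poly(A) RNA. Per the labels the authors aligned reads with HISAT and assembled and quantified transcripts with StringTie, on IWGSC RefSeq v1.0. No versions are stated there. The authors deposited FPKM values and a count column for each library. The deposited counts are whole numbers and were treated as estimated counts, since 49.0% of counts from 1 to 19 were multiples of 4, against 21.1% if spread evenly. How they were derived is not stated. No per-sample column was left unused. Precision rests on 68.75 M to 107.71 M counts a library.

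Counts of loci that reached 1 FPKM in 3 or more libraries (50656 of 94141) were fitted with edgeR 4.0.16 in R 4.3.3 (quasi-likelihood test, TMM factors 0.763 to 1.278, 1 mean for each group, Benjamini-Hochberg adjustment over all of them). DESeq2 1.42.0 and limma 3.58.1 on log2(FPKM + 1) or log2(FPKM + 0.1) were alternatives, with other normalization, no filter, counts divided by 4, the libraries of 1 variety, a replicate block and each library left out. FPKM is per length and compares genes. Sums and shares used FPKM, tests used counts. Each SE given with an edgeR value is the absolute log2 change divided by the square root of the test's F statistic. It is therefore an approximate value, and it is unreliable for loci at 0 in whole groups.

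The members and lists were chosen with earlier results of these data known. The patterns that sort members into complexes were amended after their descriptions had been read. Named loci were the called members, the 2 highest loci of each complex, the 3 members of lowest p for each waterlogging comparison, the A, B and D copies of the highest locus of each complex, and up to 3 of the highest organelle-type loci. MSTRG.8083, MSTRG.5863, the CtaG copies and the members of the remaining class were added after their values were seen. No library was paired across groups. The fit was tested on simulated data.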

Additional observations from a re-analysis of the deposited data

Results flagged for a closer look

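In 4 of 33 groups of 6 libraries of a variety, 1 library stood far from the other 5 by Dixon's test. Its cutoff is passed by chance in about 1 of 20 independent groups. That rate does not hold here, since the shares of a set depend on each other and some items were picked by their values. Where the other 5 libraries are at 0, any count in 1 library is flagged. The succinate dehydrogenase subunit 5 locus TraesCS2A02G298400 had 0.0496 FPKM in C72_ZM22 replicate 3 and 0 in the other ZM22 libraries. The same locus had 2.96 FPKM in the library labelled W72_BN207 replicate 1 and 0 in the other BN207 libraries. The 2A copy of ATP synthase subunit d (MSTRG.6029) held 28.6% of its set in the library labelled W72_BN207 replicate 1, below the other BN207 libraries. The 2D copy of succinate dehydrogenase subunit 3 (MSTRG.9791) held 29.3% of its set in W72_BN607 replicate 1, below the other BN607 libraries.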

How the results depend on the processing

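The count of members past the adjusted threshold for W72 against C72 was 0 in every variety and in the average with each library left out (0 to 0), as it was with other size factors, no filter, limma, counts divided by 4 and the replicate block. In the same comparisons limma on log2(FPKM + 1) called 0 of all tested loci. DESeq2 called 1 in ZM22 and 1 in BN207, and 1 in each of the 3 differences in response. An unadjusted p of 0.05 with a log2 change beyond 1 gave 1 in BN207, and 2, 1 and 2 for the differences in response of BN207 against ZM22, BN607 against ZM22 and BN607 against BN207. Between varieties, DESeq2 called 2 for BN207 against ZM22, 6 for BN607 against ZM22 and 2 for BN607 against BN207. The unadjusted threshold gave 1 and 2 for the first and the last of these. For the last, limma called 2 members on log2(FPKM + 1), where 1365 of all 50656 loci were called. On log2(FPKM + 0.1) it called 1 member, with 1373 of all loci called. With each library left out edgeR's counts ran from 0 to 1, 0 to 5 and 0 to 1 in the same order. With all libraries 4.63%, 10.6% and 1.52% of all loci were called by edgeR. The median of the members ran from -0.06 to 0.44 in ZM22, -0.14 to 0.18 in BN207 and 0.00 to 0.25 in BN607, and from 0.02 to 0.18 in the average. The fitted difference of TraesCS2A02G298400 between BN607 and ZM22 ran from 8.44 to 10.39 and that of TraesCS5A02G077100 from 1.53 to 2.15. The waterlogging value of TraesCS2A02G298400 in BN207 ran from 0.00 to 9.72, and DESeq2 gave 22.72. Average changes near 0 turned sign: with limma (pseudocount 1, then 0.1) MSTRG.964 had -0.03 and -0.04, MSTRG.23622 -0.06 and -0.06, MSTRG.5726 -0.04 and -0.04, and MSTRG.6029 -0.03 and -0.03. With each library left out they ran from 0.00 to 0.25, -0.06 to 0.10, -0.04 to 0.14 and -0.06 to 0.18, MSTRG.8069 from 0.00 to 0.20 and MSTRG.21672 from -0.06 to 0.07. On the log2(FPKM + 1) scale the members' median between varieties was 0.35 for BN607 against ZM22 and 0.33 for BN607 against BN207, where all genes had 0.19 and 0.17. The cause of these changes was not tested. Replicate numbers were shared between groups but did not pair the libraries: 3 of 9 pairs correlated above 0.1 (-0.51 to 0.58), and 5 of 18 libraries were most like their own number. The replicate block changed no count of called members (2 for BN607 against ZM22, adjusted p = 0.0339 and 0.0337 by edgeR). The libraries held 68.75 M counts or more, and what depth limits was not tested apart from the spread between libraries.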
